A study of Mus musculus with 23 samples.

Results

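The T-box transcription factor genes described here are Tbx1, Tbx2, Tbx3, Tbx4, Tbx5, Tbx15, Tbx18, Tbx20 and Eomes, 9 genes in all. They were followed through 51 genomic fragments under 2000 bp that overlap the mm9 gene bodies or the 2000 bp upstream of them, of 52313 such fragments in the genome. The genes were chosen from read counts of these same libraries, so their values are given as a description, without p-values. Methylation was measured by AIMS-seq, which uses a pair of restriction enzymes with the same site. At an unmethylated CCCGGG, SmaI makes a blunt cut that takes no adaptor. The methylated sites that are left are opened by XmaI, whose overhangs accept the adaptors. A fragment is the stretch between consecutive sites, and a read of it comes from a molecule methylated at both ends. The unit used, RPM (read counts scaled to 1000000 reads of the library), therefore increases with methylation of the pair of sites, but it is not a percentage of methylated molecules and also depends on how well a fragment amplifies.

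The 23 mouse libraries fall into 9 groups. Whole skeletal muscle was taken from 3 males, muscle 1 and muscle 2 of mixed 129Sv/C57BL/6J and muscle 3 of C57BL/6J genotype. All cultured and freshly isolated muscle precursor cells were from C57BL/6J males. Cultures 21, 26 and 27 each gave proliferating myoblasts at passages 8 to 10 and myotubes after 1, 2 and 4 days in differentiation medium. The 2 libraries of passage 0 cells bear the numbers 26 and 27, and were paired with those cultures by number alone. A single library came from precursors isolated 3 days after cardiotoxin injury and a single one from uninjured muscle, neither cultured. The embryonic stem cell (ESC) group has 3 lines, CGR8 (129Sv), RD1 (129X1/SvJ) and E14Tg2 (129/Ola); CGR8 gave 2 libraries, which were counted as 1 sample. No label reports a transgene or deletion. Cell type and strain change together between ESC and the other groups, so they cannot be told apart. Whole muscle also holds vessels, nerve, fat and blood, and methylation of muscle fibre nuclei cannot be told apart from that of other nuclei. The labels do not say that replicates came from separate animals, so the spread may be partly technical. Fragment methylation gives no check of the labelled cell types by marker expression.

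T-box proteins share a DNA-binding domain, first described in Brachyury (T), and act as activators or repressors during the laying down of mesoderm, limbs and heart. Many of their genes lie within broad CpG islands, stretches rich in unmethylated CpG, which are bordered by less dense shores. In skeletal muscle of the mouse, Tbx15 is known from fast glycolytic fibres, whereas Tbx5 and Tbx20 are best known from the heart and Tbx4 and Tbx5 from the hindlimb and forelimb. Tbx3 lies 149938 bp from Tbx5 on chromosome 5, and Tbx2 lies 44473 bp from Tbx4 on chromosome 11, as linked pairs.

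The sequences below are shown because they carry nearly all T-box reads; they are from the mm9 reference, plus strand, with the CCCGGG sites that bound the fragments in capitals. Tbx3 and Tbx15 are shown whole, with both end sites. Eomes, Tbx5 and Tbx1 are shown from their left end site over 300 bases. The Tbx15 run holds a 154 bp and a 121 bp fragment that share the middle site, so reads of both need that site methylated.
Tbx3 intron, 235 bp fragment, chr5:120122599-120122839: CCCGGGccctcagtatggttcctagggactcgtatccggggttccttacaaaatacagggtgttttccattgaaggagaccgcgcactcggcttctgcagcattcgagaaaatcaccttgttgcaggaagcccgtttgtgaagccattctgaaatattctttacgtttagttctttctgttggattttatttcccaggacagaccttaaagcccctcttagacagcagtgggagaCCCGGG
Tbx15 first intron, 154 bp and 121 bp fragments, chr3:99045087-99045367: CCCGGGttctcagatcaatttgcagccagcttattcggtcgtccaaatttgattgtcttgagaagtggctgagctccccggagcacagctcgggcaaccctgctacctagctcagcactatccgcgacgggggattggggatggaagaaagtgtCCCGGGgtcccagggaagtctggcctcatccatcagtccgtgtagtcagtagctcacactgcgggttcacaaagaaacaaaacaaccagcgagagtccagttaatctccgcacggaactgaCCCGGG
Eomes upstream region, left part of the 631 bp fragment, chr9:118386898-118387197: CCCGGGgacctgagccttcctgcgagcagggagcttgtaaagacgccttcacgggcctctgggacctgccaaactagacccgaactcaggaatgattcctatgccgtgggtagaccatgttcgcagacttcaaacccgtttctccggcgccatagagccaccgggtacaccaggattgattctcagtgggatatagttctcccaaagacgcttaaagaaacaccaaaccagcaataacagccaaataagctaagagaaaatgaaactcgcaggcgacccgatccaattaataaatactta
Tbx5 intron, left part of the 1196 bp fragment, chr5:120309224-120309523: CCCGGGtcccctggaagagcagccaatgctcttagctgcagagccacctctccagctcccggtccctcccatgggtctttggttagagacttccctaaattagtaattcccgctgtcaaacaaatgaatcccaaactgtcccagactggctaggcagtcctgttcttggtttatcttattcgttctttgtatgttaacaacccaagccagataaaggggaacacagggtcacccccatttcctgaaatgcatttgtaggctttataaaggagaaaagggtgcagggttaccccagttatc
Tbx1 intron, left part of the 845 bp fragment, chr16:18584737-18585036: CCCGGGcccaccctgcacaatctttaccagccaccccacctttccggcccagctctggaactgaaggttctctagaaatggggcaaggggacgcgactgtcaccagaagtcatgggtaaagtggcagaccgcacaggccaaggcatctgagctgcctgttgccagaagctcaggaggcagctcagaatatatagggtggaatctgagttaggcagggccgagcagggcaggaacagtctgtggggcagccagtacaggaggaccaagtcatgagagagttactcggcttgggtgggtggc

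Reads were spread very unevenly over the 51 fragments. In all, 25904 of 235463533 reads fell on them, and the 4 fragments of Tbx5, Tbx1, Eomes and Tbx3 with most reads held 89.5% of these. No read was found on 18 fragments in any library, which allows up to 0.0127 RPM over all libraries by counting error alone. A further 16 fragments had 1 to 9 reads, and 11 reached 1 RPM in the mean of at least 1 group. All 51 are bounded by CCCGGG at both ends in the mm9 genome.

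All 18 unread fragments were in the island class, where 27 of the 51 fragments lie. Over the genome, 61.3% of island fragments had no read, near the 66.7% of the T-box genes. The unread T-box fragments held a median of 11.3 CpG per 100 bp, against 4.13 in the 3 island fragments that reached 1 RPM. Over all island fragments of the genome these medians were 10.7 without reads and 5.76 at 1 RPM or more. Length differs too, since 8 of the 18 unread fragments were under 100 bp. Its part in the missing reads was not tested.

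Around the annotated gene starts, 13 T-box fragments had their centre within 500 bp. Of these, 7 had no read and 4 had 1 to 5 reads in all libraries together. The exceptions were the Eomes shore fragment and a 178 bp fragment centred 318 bp upstream of Tbx1. The Tbx2 and Tbx3 gene starts were nearly unread in every group, muscle and ESC alike. All 7 unread fragments were in the island class, where 61.3% of fragments over the genome had no read. They include fragments as short as 7 bp. The share without reads near all gene starts of the genome was not counted.

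**Figure D1:**
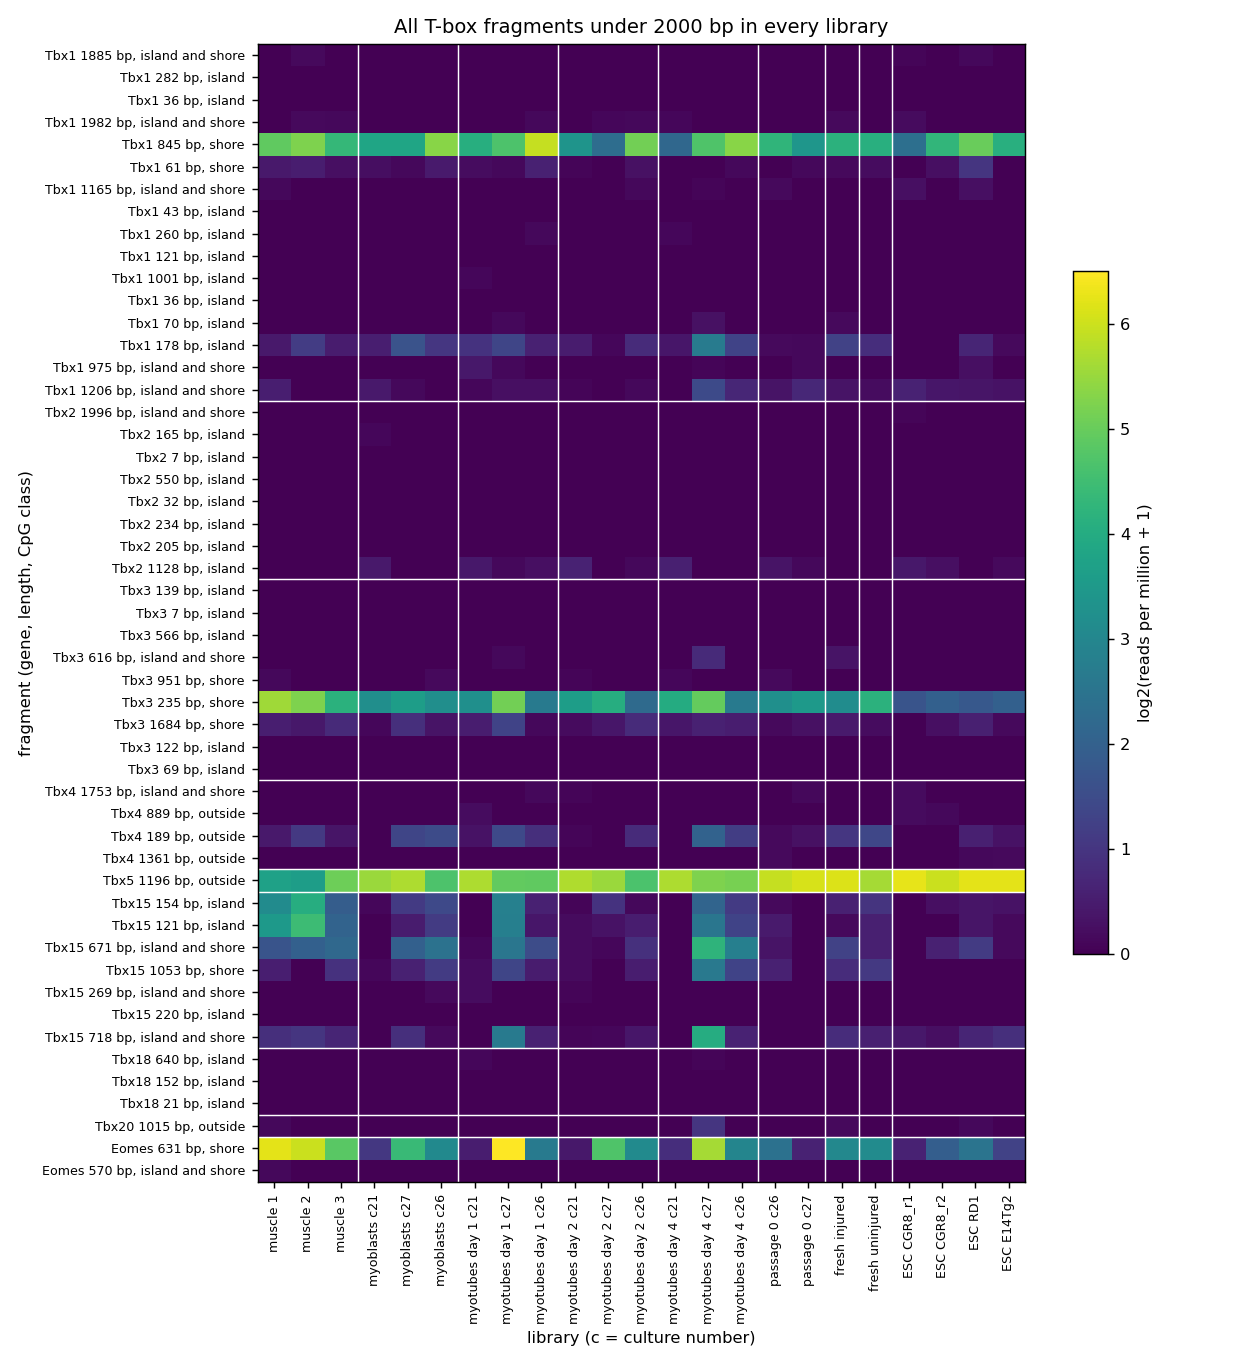
Level of each of the 51 T-box fragments (rows, named by gene, length and CpG class) in each of the 23 libraries (columns, c marks the culture number), as log2(RPM + 1) by colour. Most rows stay near 0, and 4 rows, of Tbx1, Tbx3, Tbx5 and Eomes, carry 89.5% of the reads.

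Tbx3 encodes a repressor needed in limb and mammary development that also sustains pluripotency in mouse ESC. Its 235 bp fragment (chr5:120122602-120122836), printed above, lies in an intron, in an island shore centred 2041 bp downstream of the gene start. It had 47.0, 37.0 and 16.6 RPM in muscle 1, 2 and 3, against 2.25 and 2.96 RPM in the CGR8 libraries, 2.48 RPM in RD1 and 2.99 RPM in E14Tg2. Every muscle library was above every ESC library, and so was each of the other 16 libraries. Myoblasts had 8.24 RPM in culture 21, 11.3 in culture 27 and 8.20 in culture 26, all below the lowest muscle library. Over days 1, 2 and 4 of differentiation the fragment had 8.48, 11.2 and 14.9 RPM in culture 21, 33.7, 15.6 and 30.1 RPM in culture 27 and 5.30, 3.75 and 5.30 RPM in culture 26. Passage 0 cells had 8.40 RPM in culture 26 and 10.2 in culture 27, close to the myoblasts of the same number. The group means were 33.5 ± 15.5 RPM in muscle, 9.24 ± 1.76 RPM in myoblasts and 2.69 ± 0.26 RPM in ESC (SD, n = 3 each). The myoblast and ESC groups varied little among themselves compared with the distance between them.

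The fragments beside it behaved unlike it. The 951 bp fragment upstream of it, over the first coding exon, had 5 reads in all, and the 1684 bp fragment downstream had 89. The remaining Tbx3 fragments, 6 of the 9, had 13 reads at most. Methylation at Tbx3 was thus read almost wholly from 1 fragment of 9.

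Eomes encodes a factor of mesoderm and endoderm formation that also acts in cytotoxic lymphocytes. Its 631 bp shore fragment (chr9:118386901-118387531) spans the annotated gene start, with most of its length upstream. It had 74.6, 61.9 and 27.6 RPM in muscle 1, 2 and 3, against 0.544 and 2.85 RPM in the CGR8 libraries, 4.66 RPM in RD1 and 1.43 RPM in E14Tg2. Muscle and ESC did not overlap. Myoblasts had 1.09 RPM in culture 21, 20.1 in culture 27 and 7.42 in culture 26, so the cultures ranged from ESC levels to near the lowest muscle. Passage 0 cells had 4.39 RPM in culture 26 and 0.546 in culture 27, within the range of the ESC libraries. The next fragment, of 570 bp over the first exon, had a single read in all libraries.

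Tbx1 encodes a factor of pharyngeal arch, outflow tract and head muscle development. Its 845 bp shore fragment (chr16:18584740-18585584) covers intron and a short coding exon. It had 29.2, 36.9 and 19.1 RPM in muscle 1, 2 and 3, against 4.22 and 18.5 RPM in the CGR8 libraries, 31.3 RPM in RD1 and 16.1 RPM in E14Tg2. The 2 groups overlapped, and RD1 exceeded all but 1 muscle library. Culture 26 was the high one throughout, with 39.8, 59.8, 33.5 and 39.8 RPM from myoblasts through days 1, 2 and 4. Culture 21 had 13.1, 16.0, 9.37 and 3.47 RPM and culture 27 had 13.0, 24.9, 4.00 and 25.2 RPM at the same stages. Passage 0 cells had 18.1 RPM in culture 26 and 9.61 in culture 27. Of the other 15 Tbx1 fragments, the 178 bp fragment upstream of the gene start peaked at 5.51 RPM in day 4 myotubes of culture 27, where muscle had at most 1.23 RPM and ESC at most 0.595 RPM. Myoblasts had 0.453, 2.17 and 1.04 RPM there in cultures 21, 27 and 26. A 1206 bp fragment farther upstream also peaked in that library, at 1.74 RPM, and was at 0 in muscle 2 and muscle 3.

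Tbx5 encodes the forelimb and heart factor mutated in human Holt-Oram syndrome. Its only fragment under 2000 bp (chr5:120309227-120310422, 1196 bp) lies outside islands, 25152 bp into the gene in an intron, and carries an ID4 repeat. It had 12.1, 11.4 and 32.3 RPM in muscle 1, 2 and 3, against 75.3 and 62.0 RPM in the CGR8 libraries, 73.8 RPM in RD1 and 74.4 RPM in E14Tg2. It was the T-box fragment with most reads and the one of these 4 that was lower in muscle. Myoblasts lay between by group mean, with 44.8 RPM in culture 21, 51.3 in culture 27 and 24.7 in culture 26. Muscle 3, at 32.3 RPM, was above the culture 26 myoblasts, so muscle and myoblasts overlapped. Passage 0 cells had 60.0 RPM in culture 26 and 67.5 in culture 27, both above the myoblasts of the same number. By group mean the order upward was muscle at 18.6 ± 11.8 RPM, myoblasts at 40.3 ± 13.8 RPM, passage 0 cells at 63.7 ± 5.32 RPM (n = 2) and ESC at 72.3 ± 3.17 RPM (SD, n = 3 unless given). Over days 1, 2 and 4 culture 21 had 50.7, 51.9 and 51.4 RPM, culture 27 had 29.7, 44.6 and 36.9 RPM and culture 26 had 29.4, 24.4 and 34.9 RPM. The myotube groups, at 36.6 to 41.1 RPM, did not differ from the myoblasts beyond their spread.

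**Figure D2:**
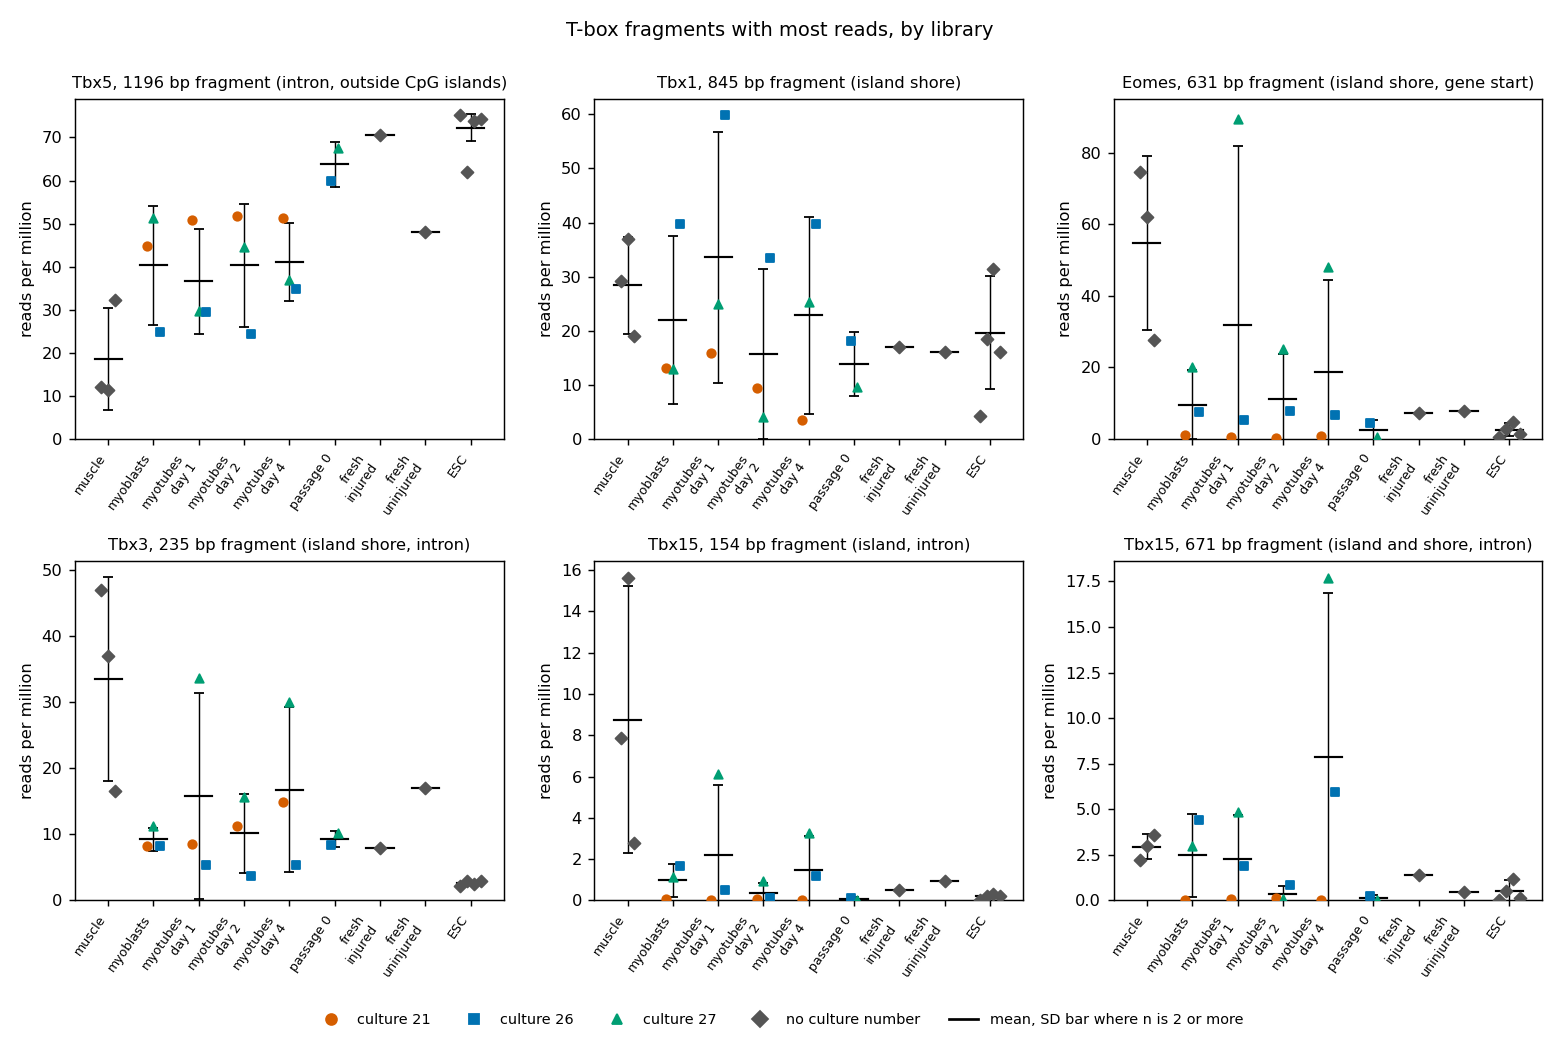
RPM of 6 T-box fragments in each library, with groups along the x axis, points coloured by culture and bars at the group mean ± SD (bars are clipped at 0). Muscle stands above ESC for Tbx3, Eomes and Tbx15 and below it for Tbx5, and culture 21 (circles) stays near 0 for Eomes and Tbx15 while culture 27 (triangles) peaks at day 1 or day 4.

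Tbx15 encodes a factor of limb and skull skeleton and of glycolytic muscle fibres. Of its 7 fragments, 6 gave reads and 5 reached 1 RPM, more than at any other of the 9 genes. They form a group in the first intron, 785 bp beyond the gene start, and another around an alternative first exon. The 154 bp island fragment (chr3:99045090-99045243) had 7.86, 15.6 and 2.79 RPM in muscle 1, 2 and 3, against 0 and 0.204 RPM in the CGR8 libraries, 0.298 RPM in RD1 and 0.239 RPM in E14Tg2. The 121 bp island fragment next to it (chr3:99045244-99045364) had 10.2, 20.8 and 3.19 RPM in muscle 1, 2 and 3, and at most 0.298 RPM in any ESC library. Muscle stood above ESC and above every myoblast library at both fragments, the highest myoblast value being 1.69 RPM.

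Farther from the gene start the order of groups changed. The 671 bp fragment that follows (chr3:99045365-99046035, island and shore) had 2.22, 3.01 and 3.58 RPM in muscle 1, 2 and 3. Myoblasts had 0, 3.00 and 4.42 RPM there in cultures 21, 27 and 26, and ESC had 0 and 0.510 RPM in the CGR8 libraries, 1.19 RPM in RD1 and 0.119 RPM in E14Tg2. Day 4 myotubes had 0 RPM there in culture 21, 17.7 RPM in culture 27 and 5.94 RPM in culture 26. At the 718 bp fragment after the alternative first exon, day 4 myotubes of culture 27 had 15.2 RPM, whereas no muscle library passed 1.00 RPM and no ESC library 0.836 RPM. The 269 bp and 220 bp fragments between them, over the alternative first exon, had 4 reads and none. Levels at Tbx15 were therefore led by muscle in the first 2 fragments and by day 4 myotubes of 1 culture in the later ones.

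**Figure D3:**
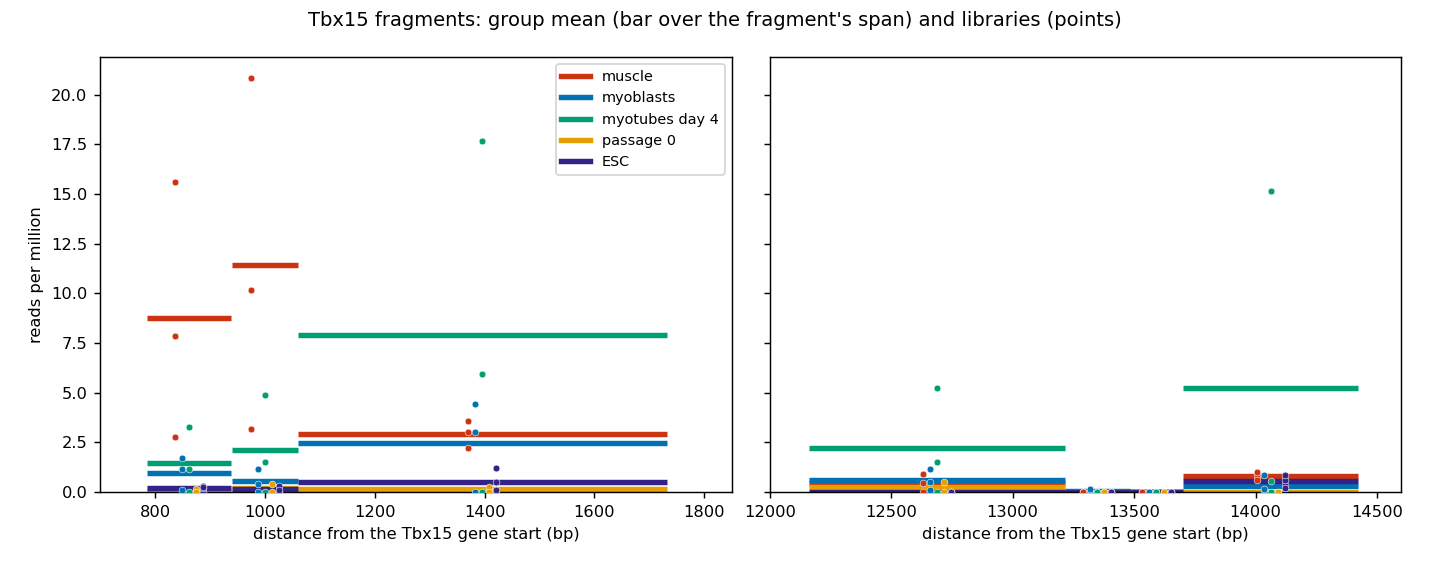
RPM at Tbx15 fragments against distance from the gene start in bp, with a bar for each group mean over the span of the fragment and a point per library. Muscle leads at the 154 bp and 121 bp fragments, and day 4 myotubes lead at the 671 bp and 718 bp fragments through culture 27, at 17.7 and 15.2 RPM.

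The 4 remaining genes gave few reads. At Tbx4, a hindlimb factor, a 189 bp intronic fragment outside islands peaked at 3.12 RPM in day 4 myotubes of culture 27. It averaged 0.594 ± 0.452 RPM in muscle and 0.245 ± 0.248 RPM in ESC (SD, n = 3 each), a difference within the spread. Tbx20, needed in heart development, had 17 reads on its only fragment, of which day 4 myotubes of culture 27 gave 1.02 RPM and 19 libraries none. Tbx2, a repressor close to Tbx3 in sequence and role, had 39 reads over 8 fragments, 37 of them on 1 fragment. Tbx18, a factor of somite polarity and of the epicardium, had 2 reads over 3 fragments. No fragment of Tbx2, Tbx18 or Tbx20 had reads enough for the main edgeR fits described below, so groups were not tested there. The 1128 bp Tbx2 fragment had 4, 4, 8 and 6 reads in culture 21 from myoblasts through days 1, 2 and 4. It had none in muscle and 0 to 5 in the ESC libraries.

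The fragments on either side of the length limit were read unevenly. The longest fragments inside it, 1885 and 1982 bp at Tbx1 and 1996 bp at Tbx2, had 3, 9 and 1 reads in all. The shortest outside it, 2112 bp at Eomes, had 7 reads, followed by 2571 bp at Tbx20 with 144 reads and 2811 bp at Tbx4 with 331. For Tbx20 and Tbx4 these single fragments held more reads than all their fragments inside the limit, which had 17 and 177. The Tbx4 fragment reached 2.70 RPM in the myoblast mean, against 0.803 RPM in ESC.

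Summed by CpG class, the T-box fragments separated into those higher in muscle and those lower. Island fragments summed to 20.8 ± 15.8 RPM in muscle, 2.87 ± 1.63 RPM in myoblasts and 0.720 ± 0.422 RPM in ESC (SD, n = 3 each). In muscle nearly all of this came from the adjoining 154 bp and 121 bp Tbx15 fragments, at means of 8.75 and 11.4 RPM. Shore fragments summed to 118 ± 46.4 RPM in muscle, 42.0 ± 17.6 RPM in myoblasts and 25.5 ± 12.8 RPM in ESC. Fragments reaching from island into shore summed to 4.07 ± 0.323 RPM in muscle, 2.99 ± 2.31 RPM in myoblasts and 1.68 ± 0.781 RPM in ESC, so that muscle and myoblasts were within their spread. Fragments outside islands ran the other way, with 19.2 ± 11.6 RPM in muscle, 41.4 ± 13.5 RPM in myoblasts and 72.7 ± 3.39 RPM in ESC, almost all of it from Tbx5.

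The island reads of whole libraries moved in the same way. All island fragments under 2000 bp, including those reaching into shores, took 15397 to 46087 RPM in muscle, 2837 to 12983 RPM in myoblasts and 2635 to 5919 RPM in ESC. T-box island reads made up 6.64, 9.10 and 6.92 of every 10000 island reads in muscle 1, 2 and 3. In ESC this share was 6.97 and 3.00 in the CGR8 libraries, 6.37 in RD1 and 4.76 in E14Tg2. The shares overlapped between muscle and ESC, at means of 7.55 ± 1.34 and 5.37 ± 0.87 per 10000 (SD, n = 3 each). In muscle most of the T-box island reads came from Tbx15. The part that library-wide island reads play in the T-box levels was not tested further.

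The Tbx3 and Eomes fragments were also set against the shore reads of each library. The Tbx3 fragment took 6.67, 4.54 and 3.20 of every 10000 shore reads in muscle 1, 2 and 3, against at most 0.831 in any ESC library. The Eomes fragment took 10.6, 7.58 and 5.31 of every 10000 shore reads in the same muscles, against at most 1.24 in any ESC library. Neither fragment overlapped between muscle and ESC in RPM or in this share. Of all shore fragments tested, 59.6% were called higher in muscle than in ESC. How many of those do not overlap either was not counted. The Tbx1 shore fragment, as given above, overlapped between the groups in RPM.

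**Figure D4:**
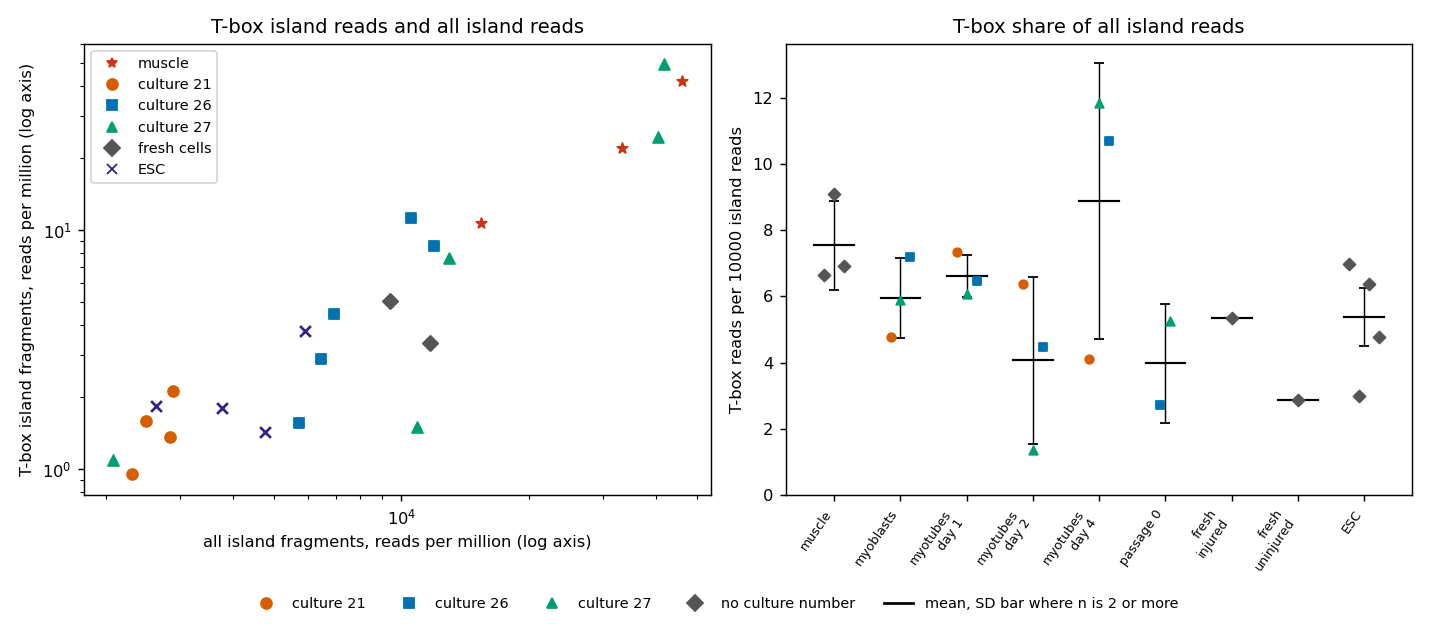
Left, RPM of T-box island fragments against those of all island fragments in each library, both on log axes. Right, T-box reads per 10000 island reads by group with mean ± SD; muscle at 6.64 to 9.10 and ESC at 3.00 to 6.97 overlap.

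The whole table of fragments was then fitted for 6 comparisons with edgeR's quasi-likelihood test, with calls made below an adjusted p of 0.05 (Benjamini-Hochberg). Of the 51 T-box fragments, 7 passed the filter on low counts in muscle against ESC. Called higher in muscle were 6 of them, where 24.4% of all 22980 fragments tested were called higher, and 1 was called lower, where 34.6% were. Since the genes were chosen from these libraries and a fragment could pass the filter through muscle alone, nothing is read from these counts, nor from the counts of T-box fragments called in the comparisons that follow, which are given as a description. The median log2 change of all fragments tested was -0.34 here, -1.14 with library totals in place of TMM scaling and -0.55 with DESeq2. Changes are therefore also given relative to that median.

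The log2 change between muscle and ESC was 7.48 ± 1.11 (SE) at the 121 bp and 6.39 ± 0.89 at the 154 bp Tbx15 fragment, and 3.41 ± 0.74 at the 671 bp one. Eomes changed by 5.35 ± 0.66, Tbx3 by 4.52 ± 0.54 and Tbx1 by 1.48 ± 0.48, and Tbx5 by -1.22 ± 0.40. Relative to the median of all fragments, Tbx1 stood at 1.82 and Tbx5 at -0.88. The Tbx1 fragment kept its direction but was not called with library totals (0.57), without the low-count filter (1.35), among fragments of 200 bp or more (1.08) or with the first CGR8 library alone (1.65). It was not called either without CGR8 (1.39), E14Tg2 (1.41) or muscle 2 (1.29). The Tbx5 fragment was not called without the low-count filter (-1.24) or without CGR8 (-1.01), E14Tg2 (-1.23), muscle 1 (-0.90) or muscle 2 (-0.91).

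Most fragments of the classes that hold Tbx15, Eomes, Tbx3 and Tbx1 were also called higher. Of island fragments under 2000 bp tested in muscle against ESC, 91.4% were called higher, of those reaching from island into shore 85.7% and of shore fragments 59.6%. Outside islands, 29.0% were called higher and 19.9% lower, so most of the class of Tbx5 was not called lower with it. The median log2 change was 4.69 in the island class and 1.92 in the shore class. The values of Tbx3 and Eomes lay above the median of their class, and that of Tbx1 below it. Among fragments reaching from island into shore the median was 4.17, above the 3.41 of the 671 bp Tbx15 fragment.

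Muscle was next compared with the cultured myoblasts, which share its lineage. Of 9 T-box fragments tested, 4 were called higher, where 13.7% of all fragments were, and none was called lower, where 17.4% were. The log2 change was 5.16 ± 1.19 at the 121 bp and 3.90 ± 1.01 at the 154 bp Tbx15 fragment, 3.28 ± 0.89 at Eomes and 2.47 ± 0.60 at Tbx3. Tbx1 at 0.95 ± 0.63 and Tbx5 at -0.69 ± 0.54 were not called. With library totals Eomes was not called, at 2.52. Without muscle 1, or without muscle 2, no fragment of the whole table was called, the T-box ones included. Without culture 27 only Eomes of the T-box fragments was called, and without culture 26 the 2 Tbx15 fragments. Muscle 1 and muscle 2 are of mixed genotype and the cultures C57BL/6J, so genotype and tissue cannot be told apart there. The single C57BL/6J muscle had 16.6 RPM at Tbx3 and 27.6 RPM at Eomes, against 11.3 and 20.1 RPM in the highest myoblast culture. Myotubes of culture 27 had 33.7 and 30.1 RPM at Tbx3 on days 1 and 4. At Eomes they had 89.5 and 48.1 RPM. The part of strain was not tested.

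Myoblasts and day 4 myotubes were each set against ESC, the ESC libraries and their spread being shared with the muscle comparison. Of 5 T-box fragments tested in each, the Tbx3 fragment alone was called higher and none was called lower. The background was 8.22% called higher and 11.7% called lower in myoblasts, and 5.42% higher and 5.93% lower in day 4 myotubes. The Tbx3 fragment changed by 1.98 ± 0.48 on the log2 scale in myoblasts and by 3.23 ± 0.80 in day 4 myotubes. Both calls were lost with library totals, at 1.79 and 2.65. The call in myoblasts was also lost without the low-count filter, at 2.02, and without RD1 or E14Tg2. The call in day 4 myotubes was also lost among fragments of 200 bp or more, at 2.91, and without CGR8, RD1 or E14Tg2. Eomes, at 1.94 ± 0.85 and 3.19 ± 1.22, and the 671 bp Tbx15 fragment, at 2.42 ± 1.24 and 4.26 ± 1.60, were not called. Without the culture 21 library they were called in both comparisons, with Eomes at 2.59 in myoblasts and 3.78 in day 4 myotubes.

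Within cultures, differentiation gave no common direction. Eomes had 1.09, 0.424, 0.344 and 0.789 RPM in culture 21 from myoblasts through days 1, 2 and 4. Culture 27 had 20.1, 89.5, 25.1 and 48.1 RPM at the same stages. Culture 26 had 7.42, 5.40, 7.71 and 6.79 RPM. Only in culture 27 did Eomes stand out at days 1 and 4. The 121 bp Tbx15 fragment had 0.413, 6.01, 0.235 and 4.86 RPM in culture 27 from myoblasts through days 1, 2 and 4, and 0, 0, 0.138 and 0 RPM in culture 21. Over the same stages of culture 27, all island fragments took 12983, 40466, 10902 and 41722 RPM. In culture 21 they took between 2307 and 2894 RPM at every stage. In culture 27 the island reads, Eomes and this Tbx15 fragment were all higher at days 1 and 4 than at day 2. Eomes, a shore fragment, took 3.97, 11.9, 4.84 and 6.99 of every 10000 shore reads of culture 27 over these stages. Whether the T-box levels are tied to the reads of the whole library was not tested.

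Day 4 myotubes against myoblasts gave 0 calls among 10 T-box fragments and 0.0% of all 22438 fragments tested, higher or lower. Of all fragments, 83 had an unadjusted p under 0.05 with edgeR, and DESeq2 also called 0. With the culture as a block, 0.174% of all fragments were called higher and none lower, and no T-box fragment was among them. Myoblasts against passage 0 cells gave 0 calls among 7 T-box fragments and 0.0% of all fragments, with 665 at an unadjusted p under 0.05, and DESeq2 called 12. With the culture as a block, 3.51% of all fragments were called higher in myoblasts and 0.747% lower. The 671 bp Tbx15 fragment was then called higher, at a log2 change of 4.66. It had 3.00 RPM in myoblasts of culture 27 and 4.42 in those of culture 26. Passage 0 cells of the same numbers had 0 and 0.258 RPM.

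Freshly isolated precursors came from 1 library each and allow no test. At the Tbx3 fragment the injured library had 8.00 RPM and the uninjured one 17.0 RPM. At Eomes they had 7.23 and 7.86 RPM. At Tbx5 they had 70.6 and 48.1 RPM, at Tbx1 17.0 and 16.0 RPM. The Tbx5 level after injury was as high as in ESC.

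The other members of the T-box family were counted in the same way. Of T, Tbx6, Tbx10, Tbx19, Tbx21, Tbx22, Tbr1 and Mga, the genes Tbx6, Tbx10 and Tbx22 had no fragment under 2000 bp, and the others had 11. This list too was chosen with earlier results of these data known, and a fragment could pass the filter through a single group. The calls and adjusted p-values of these genes are therefore given as a description. T, the mesoderm factor Brachyury, has a 265 bp island fragment centred 728 bp upstream of its start. It had 12.7, 25.3 and 7.27 RPM in muscle 1, 2 and 3, against 0 and 1.73 RPM in the CGR8 libraries, 3.17 RPM in RD1 and 1.19 RPM in E14Tg2. It was called higher in muscle than in ESC, by 4.12 ± 0.72 in log2 (edgeR, adjusted p = 0.00111). This is below the median of 4.69 of the island class, of which 91.4% was called higher. With the culture as a block the T fragment was also called higher in myoblasts than in passage 0 cells. That change was 3.09 ± 0.93 in log2 (edgeR, adjusted p = 0.0295), and it was not called without the block. Day 4 myotubes had 0 RPM in culture 21, 38.6 RPM in culture 27 and 7.64 RPM in culture 26. The cultures stood in the same order at the 671 bp Tbx15 fragment. They did so too in all island fragments, at 2307, 41722 and 10518 RPM.

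Tbx19, a pituitary factor, has a 1494 bp intronic fragment outside islands with 4.44, 6.69 and 9.66 RPM in muscle 1, 2 and 3. Myotubes of culture 27 had 2.20 RPM on day 2, below every muscle, and those of culture 21 had 6.71 RPM on day 4. ESC had 6.12 and 25.9 RPM in the CGR8 libraries, 61.0 RPM in RD1 and 44.1 RPM in E14Tg2. It fell in muscle by 1.66 ± 0.50 relative to ESC (edgeR adjusted p = 0.0166) and by 1.87 ± 0.54 relative to myoblasts (edgeR adjusted p = 0.0304). The call relative to ESC was lost without RD1 (-1.20), E14Tg2 (-1.56) or muscle 1 (-1.31) and with the first CGR8 library alone (-1.57), and that relative to myoblasts without the low-count filter (-1.71), without culture 26 or any of the 3 muscles. Tbx21, the T-bet gene of lymphocytes, has a 789 bp fragment outside islands at its last exons. It had 55.1, 65.3 and 38.4 RPM in muscle 1, 2 and 3, and 3.71, 34.7 and 16.4 RPM in myoblasts of cultures 21, 27 and 26. That difference was called, at 2.25 ± 0.71 (edgeR adjusted p = 0.0384), but not with library totals, at 1.53, among fragments of 200 bp or more, at 1.87, nor without culture 26, muscle 1 or muscle 2. Muscle and ESC were not called different there, at 0.55 ± 0.40 (edgeR adjusted p = 0.253), and the change was -0.30 with library totals. Tbr1, a brain factor, had 6 reads over 3 fragments.

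**Figure D5:**
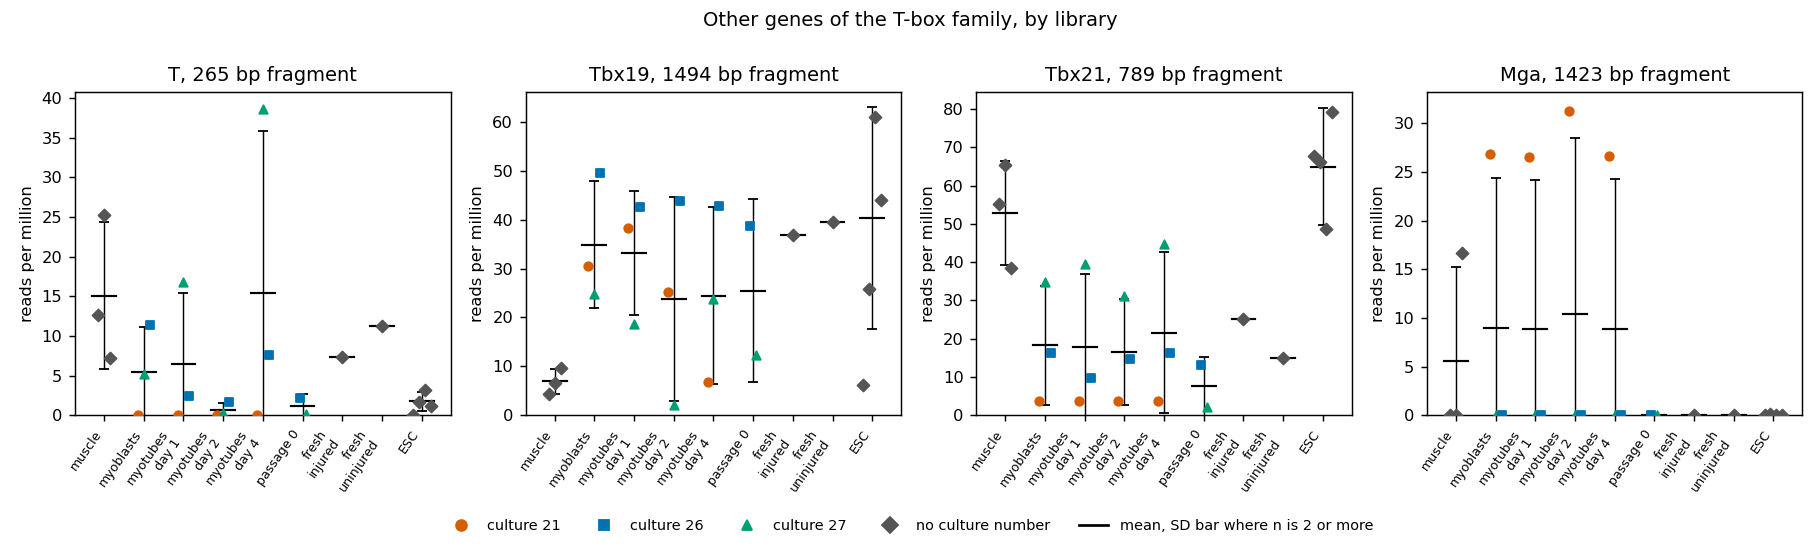
RPM by library at the main fragments of T, Tbx19, Tbx21 and Mga, with the group mean ± SD (bars are clipped at 0) and points coloured by culture. T is high in muscle and in day 4 myotubes of culture 27. Tbx19 is low in muscle but lowest in day 2 myotubes of culture 27. Mga is read almost only in culture 21 and in 1 muscle library.

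Partners and targets of T-box factors were taken as 35 genes, among them signalling genes of limb and mesoderm and cardiac factors. Of these, 9 had no fragment under 2000 bp, and the others had 100. In muscle against ESC, 18 fragments of 10 genes passed the filter, and 15 fragments of 9 genes were called higher and 0 lower, where 24.4% and 34.6% of all fragments were. Their median log2 change was 3.29. Of these 18, 9 lay in shores and 8 outside islands. All 9 shore fragments were called, where 59.6% of all shore fragments tested were called higher. With DESeq2, 15 of 40 partner and target fragments were called higher, where 6525 of 48173 of all fragments were. Without the low-count filter edgeR called 16 of 40 higher, where it called 6040 of 141892 of all. The list was chosen with earlier results known, and a fragment could pass the filter through muscle alone. Nothing is therefore read from these counts, nor from those in the comparisons that follow.

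The 3 called with the smallest adjusted p were of secreted signals. They were picked by that value from a list chosen with earlier results known, so their p-values are a description. Wnt5a, a limb outgrowth signal, averaged 45.7 RPM in muscle and 7.11 RPM in ESC at a 629 bp fragment (chr14:29325032-29325660), a log2 change of 3.55 ± 0.47 with an adjusted p of 0.000223 from edgeR. Bmp4, a mesoderm signal, averaged 21.5 RPM in muscle and 3.18 RPM in ESC at a 346 bp shore fragment (chr14:47009192-47009537), a log2 change of 3.68 ± 0.52 with an adjusted p of 0.000304 from edgeR. Shh, the limb patterning signal, averaged 257 RPM in muscle and 12.6 RPM in ESC at a 278 bp shore fragment (chr5:28792963-28793240), a log2 change of 5.35 ± 0.77 with an adjusted p of 0.000356 from edgeR. In muscle against myoblasts 6 of 17 were called higher and 0 lower, where 13.7% and 17.4% of all fragments were. With library totals 2 were called higher, of Wt1 and Bmp4, and 1 lower, of Nfatc1. Of all 20274 fragments, 1313 were called higher and 4137 lower with those totals. Without muscle 1 or without muscle 2 none was called, as in the whole table. With edgeR none was called in day 4 myotubes against ESC, in myoblasts against passage 0 cells or in day 4 myotubes against myoblasts. In day 4 myotubes against ESC, DESeq2 called 7 of 50 higher, where it called 3417 of 43144 of all fragments. Without the low-count filter edgeR called 8 of 50 higher, where it called 4214 of 143998 of all. Without culture 21 it called 8 of 17 higher, where it called 4082 of 28274 of all. In myoblasts against passage 0 cells DESeq2 called 0. The culture block gave 1 call, higher in myoblasts, of Shh, where 3.51% of all fragments were called higher. Between day 4 myotubes and myoblasts DESeq2 called 0. By edgeR 5 of 17 in day 4 myotubes against ESC had an unadjusted p under 0.05, where 23.5% of all fragments had. In myoblasts against passage 0 cells 2 of 17 had, where 2.84% of all had. Between day 4 myotubes and myoblasts 0 had, where 0.370% of all had.

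Genes outside the list whose summed fragments ran most like the T-box island sum over the 23 libraries were Ankrd13b (Pearson r = 0.974), Git2 (r = 0.961), Cd2bp2 (r = 0.957), Ucn (r = 0.954) and Rpl30-ps6 (r = 0.951), among 4404 genes ranked. The measure was log2(RPM + 1), and libraries of one culture share their source. All island reads of a library gave r = 0.921 with the T-box island sum. In muscle that sum came mostly from Tbx15, so the ranking is not one of the whole family.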

How the data were processed

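AIMS-seq reads came from an Illumina GA2 and were mapped to mm9, per the labels' protocols; Bowtie 0.11.3 and DESeq are named in the submitters' processing notes. The deposited counts are raw reads per fragment, and the authors also deposited a table of scaled values (score; method not given in the sources used here), used as an alternative. A further 7 deposited tables were not used. Libraries held 6237851 to 14696855 reads; intervals and floors cover counting error only, since PCR reads carry no molecular identifiers.

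RPM was computed over all reads. Gene bodies were from GENCODE M1 and sequences from the NCBIM37 (mm9) genome. Tests used edgeR 4.0.16 (R 4.3.3) with TMM factors, a filterByExpr minimum of 10 reads and only the 2 groups compared; CGR8 libraries were summed. DESeq2 1.42.0, library totals, no low-count filter, fragments of 200 bp or more, a 5000 bp window, the first CGR8 library alone and leaving out each sample were alternatives. The fitting script was tested on simulated data.

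The culture number pairs myoblasts with myotubes: deviations from group means correlated at 0.885, 0.734 and 0.807 within cultures 21, 27 and 26 over 14541 fragments. The members, lists and comparisons were chosen with earlier results of these data known. Named fragments were those passing the filter in muscle against ESC and those with most reads per gene or CpG class; partner and target genes were named by smallest adjusted p, and Wt1, Nfatc1 and the last Shh call after their values were seen. The result for these genes in myoblasts against ESC is not reported here.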

Additional observations from a re-analysis of the deposited data

Results flagged for a closer look

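The freshly isolated precursor libraries, which no comparison used, had reads at the 235 bp Tbx3 fragment above every ESC library. The injured library had 8.00 RPM and the uninjured one 17.0 RPM, against 2.99 RPM in the highest ESC library, and their lower 95% counting limits lay above 4.41 RPM, the highest upper limit of an ESC library. These limits cover counting error within single libraries only, on a fragment chosen from these reads, so the values are a description and no test of precursors against ESC. Whole-library shore reads were 45607 RPM in the injured and 49629 RPM in the uninjured library, against 35912 to 44241 RPM in ESC. No group of 3 was searched for outlying samples.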

How the results depend on the processing

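The counts of T-box fragments called moved with the settings, and the cause was not tested. In muscle against ESC, 6 were called higher and 1 lower; fragments of 200 bp or more alone left 3 higher, as the 2 short Tbx15 fragments were then not tested and Tbx1 was not called, no low-count filter left 0 lower, and leaving out each sample gave 5 to 6 higher and 0 to 1 lower. In myoblasts against ESC the 1 higher call became 2 with DESeq2, 0 with library totals and 0 to 6 on leaving out samples, the 6 without culture 21. In day 4 myotubes against ESC the 1 became 5 with DESeq2, 0 with library totals, 8 without the filter, 0 with fragments of 200 bp or more and 0 to 8 on leaving out samples, the 8 again without culture 21. In muscle against myoblasts the 4 became 3 with library totals and 2 with fragments of 200 bp or more. Leaving out samples gave 0 to 4 there. The calls over all fragments moved too. In myoblasts against ESC, 2068 of 25152 were called higher, 3350 of 43461 with DESeq2 and 3920 of 28173 without culture 21. With library totals 1819 of 25152 were. In day 4 myotubes against ESC, 1382 of 25497 were called higher, 3417 of 43144 with DESeq2 and 4082 of 28274 without culture 21. There 1172 of 25497 were with library totals, 4214 of 143998 without the filter and 830 of 14219 at 200 bp or more. Of all fragments in muscle against ESC, 5616 of 22980 were called higher and 7959 lower. At 200 bp or more 3451 of 13658 were higher, and without the filter 11464 of 141892 were lower. In muscle against myoblasts 2779 of 20274 were higher, 1313 with library totals and 1545 of 13358 at 200 bp or more. A 5000 bp upstream window changed no count of T-box fragments in muscle against ESC. With the culture as a replicate block, the pairing moved the count in myoblasts against passage 0 cells to 1 higher (0 without it) and left it at 0 in day 4 myotubes against myoblasts; of the other T-box genes, T was called higher in myoblasts with it, and no other T-box call changed.

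Class sums kept their direction with short-fragment depth and with the authors' scaled table; the log2 ratio of island and shore fragments in muscle against myoblasts, 0.44, ranged from -0.081 to 0.92 on leaving out samples. Of uncalled changes, Tbx21 in muscle against ESC was -0.30 with library totals, and Tbx1 in day 4 myotubes against myoblasts, 0.03, was -0.10 with fragments of 200 bp or more, -0.065 with the replicate block and -0.67 to 0.79 on leaving out samples. In the same comparison the ranges on leaving out samples were -0.57 to 1.43 for the 154 bp Tbx15 fragment, -0.27 to 0.76 for Tbx5 and -0.98 to 1.92 for Eomes. They were -0.067 to 0.94 for Tbx1 in myoblasts against ESC, -0.69 to 0.18 for Tbx5 in day 4 myotubes against ESC, and -0.64 to 0.13 for Tbx3 and -0.17 to 0.98 for Tbx1 in myoblasts against passage 0 cells. Depth limits the rest: 34 of 51 fragments had under 10 reads in all libraries together.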

Other observations

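Mga, a T-box gene that encodes a partner of Max, was read in a manner unlike the other family members. Its 1423 bp fragment (chr2:119769502-119770924), in an exon and with a B3 repeat, had 26.6 to 31.3 RPM in the 4 libraries of culture 21, from 1401 reads, and 16.7 RPM in muscle 3. In all 18 other libraries together it had a single read. Cultures 26 and 27 share the C57BL/6J label with culture 21 and with muscle 3. From myoblasts through day 4 the culture 21 libraries also had the lowest Eomes levels of the 3 cultures, at 0.344 to 1.09 RPM, and had none or nearly none of the Tbx15 intron reads.

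Tbx21 was likewise steady within culture 21, at 3.63 to 3.71 RPM in all 4 libraries, while culture 27 ranged from 31.2 to 44.7 RPM and culture 26 from 9.86 to 16.4 RPM. Of the 2 CGR8 libraries, the second correlated with E14Tg2 at r = 0.935 over 14632 fragments and with the first CGR8 library at r = 0.855, as a description of shared fragments. At the Tbx1 845 bp fragment the CGR8 libraries had 4.22 and 18.5 RPM.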
